A study of Mus musculus with 12 samples.

Results

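The transcripts described here are the 118 of 23235 gene entries that were gained in the cytoplasm of Mtr4-null mouse oocytes. A gene was taken as a member if the ratio of its mean level in Mtr4-null cytoplasm to that in WT cytoplasm, each with 1 FPKM added, was 2 or more on the log2 scale, and if its lowest Mtr4-null cytoplasm value lay above its highest WT value. In all, 132 entries met both conditions (0.568% of all entries, and 1.0% of the 13157 genes tested), and 14 of them were left out by name because they are histone, small RNA, ribosomal precursor, MHC or metal-response genes or a few single transcripts. The mirror of the rule gave 70 transcripts lost from Mtr4-null cytoplasm. Since the cytoplasm values chose the members, they are given as a description, and tests were made only in the nuclei, which the rule did not use.

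Oocytes were isolated from day 14 mice labelled Mtr4-null or WT, nuclei were parted from cytoplasms with a micropipette, and RNA without ribosomal RNA was sequenced from 10 nuclei or cytoplasms per library. The 4 groups were Mtr4-null cytoplasm, WT cytoplasm, Mtr4-null nucleus and WT nucleus, with 3 libraries each, although the design text of the study speaks of duplicates. Strain, the Mtr4 allele and the means of its deletion were not given in the labels, and WT oocytes are the only controls. Levels are FPKM, fragments scaled by transcript length and by the mapped fragments of the library, so each value is a share of its library: a larger share and a larger amount per oocyte cannot be told apart.

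MTR4 is an RNA helicase of the nucleus that unwinds RNA and feeds it to the exosome of the nucleus, which digests RNA from its 3′ end. Its adaptor complexes bring it noncoding transcripts from promoters and enhancers, snoRNA precursors and RNAs that were ended early or left unspliced. A growing oocyte stores its messenger RNA in the cytoplasm for later use, so that RNA which escapes decay in the nucleus can be kept for long once exported.

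Skiv2l2, the symbol under which the table lists Mtr4, was at 1.04, 0.315 and 0.700 FPKM in Mtr4-null cytoplasms and at 21.1, 19.4 and 20.2 FPKM in WT cytoplasms. Nuclei labelled Mtr4-null held 7.98, 0.182 and 1.12 FPKM, against 6.06, 2.45 and 5.37 FPKM in WT nuclei. The nucleus library labelled Mtr4-null replicate 1 thus lay above every WT nucleus and goes against its label. The nucleus library labelled Mtr4-null replicate 3 stood apart in another way, with 62.4% of all tested genes above every WT nucleus. The main nuclear counts, medians and folds below are therefore given both with that first library and leaving it out, or per library. Depth relative to WT cytoplasm replicate 1, read from the smallest values, was 0.518 to 1.13 in Mtr4-null cytoplasms, 1 to 1.55 in WT cytoplasms, 0.129 to 0.398 in nuclei labelled Mtr4-null and 0.143 to 0.173 in WT nuclei. Of 14 oocyte markers, 0 were higher and 0 lower by 1 or more on the log2 scale without overlap between the cytoplasms. The same held for the 6 tested of 16 granulosa cell markers. All 16 summed to 95.2 to 139.9 FPKM in Mtr4-null and 123 to 141 FPKM in WT cytoplasms. Most of that sum was Serpine2 (mean 94.8 FPKM in Mtr4-null and 92.7 FPKM in WT) and Nr5a2 (18.6 and 28.5 FPKM). Every other marker of the list averaged 3.93 FPKM or less in either group, and Amh and Foxl2 averaged 0.326 FPKM or less. In such pools, fewer cells of a type and less RNA per cell cannot be told apart.

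In Mtr4-null cytoplasm the members had a median level of 10.8 FPKM (range 3.01 to 1144), against 1.17 FPKM (range 0 to 83.1) in WT cytoplasm. Most lay close to the threshold: the cytoplasm log2 ratio had a median of 2.31, 78 of the 118 were under 2.5 and 16 were at 3 or more. Just inside it were Gm10638, at 9.94, 11.5 and 11.4 FPKM in Mtr4-null and 1.95, 1.97 and 2.05 FPKM in WT, and Sfn, the gene of 14-3-3 sigma, at 6.66, 4.67 and 3.78 FPKM in Mtr4-null and 0.929, 0.298 and 0.292 FPKM in WT. Just outside lay 1700007L15Rik and Rpusd4, a pseudouridine synthase gene, with ratios of 1.998 and 1.991. The coefficient of variation over the 3 Mtr4-null cytoplasms had a median of 21.1%, and 15 members exceeded 50%. Replicate 2 was the highest Mtr4-null cytoplasm for 53 members, replicate 3 for 36 and replicate 1 for 29.

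To describe how far the Mtr4-null cytoplasms were alike in the gain, the rule was applied with each of them left out in turn. Of the rows chosen without Mtr4-null cytoplasm replicate 1, 127 of 128 lay above every WT cytoplasm in it, with a median difference of 2.13 from the mean of the WT cytoplasms on the log2(FPKM + 1) scale. For replicate 2 the count was 111 of 113 (median 2.27), and for replicate 3 it was 120 of 120 (median 2.28). The WT cytoplasms were shared by all 3 choices, so these counts speak only of the Mtr4-null libraries. The rows were also chosen for low values in the WT cytoplasms they were compared with, which favours high counts. No share of all tested genes was taken for the library left out, so the counts are a description and no test.

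Among members with a given name, several are proteins of specialised cells. Stk36, a kinase that mouse motile cilia need and whose Drosophila relative Fused acts in Hedgehog signalling, was at 93.2, 79.5 and 84.7 FPKM in Mtr4-null cytoplasm, against 5.79, 5.04 and 5.08 FPKM in WT. Kcnh1, a voltage-gated potassium channel of neurons, was at 109, 125 and 123 FPKM, against 12.1, 17.4 and 16.7 FPKM. Rln3, the brain peptide hormone relaxin 3, was at 71.8, 80.0 and 96.99 FPKM in Mtr4-null, against 12.9, 9.64 and 12.9 FPKM in WT. These levels are tight within each group and far apart between them. Lypd3, a GPI-anchored surface protein of the Ly6/uPAR family known from epithelia, was at 43.5, 36.8 and 29.9 FPKM in Mtr4-null and at 1.58, 0.917 and 1.08 FPKM in WT. Prr15l, a gene for a proline-rich protein, was at 14.1, 20.3 and 14.6 FPKM in Mtr4-null and was listed at 0, 0.0403 and 0 FPKM in WT. Defb8, a beta-defensin of epithelial defence, was at 14.8, 19.2 and 13.6 FPKM in Mtr4-null and listed at 0 in all 3 WT cytoplasms. Prr15l and Defb8 were thus all but absent from WT cytoplasm, whereas WT cytoplasm held Kcnh1, Stk36 and Rln3 at low but measured levels.

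The promoters of 3 of these genes are shown because Mt1 and Slc30a2, genes that respond to metal, met the same cytoplasm conditions and were left out only by name. Sequences are those of RefSeq on GRCm38.p6, 250 bases before to 50 bases after the start of the gene, and capitals mark the core of the metal response element, searched as TGCACNC and TGCGCNC on both strands, where overlapping matches were counted singly.
Kcnh1, chr1:192190527-192190826, plus strand: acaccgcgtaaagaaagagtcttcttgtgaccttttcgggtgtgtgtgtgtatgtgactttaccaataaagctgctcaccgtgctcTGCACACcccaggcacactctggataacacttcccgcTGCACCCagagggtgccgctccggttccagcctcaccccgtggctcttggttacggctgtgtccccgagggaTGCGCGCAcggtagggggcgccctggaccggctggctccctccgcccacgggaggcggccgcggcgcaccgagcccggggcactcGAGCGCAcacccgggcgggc
Stk36, chr1:74601205-74601504, plus strand: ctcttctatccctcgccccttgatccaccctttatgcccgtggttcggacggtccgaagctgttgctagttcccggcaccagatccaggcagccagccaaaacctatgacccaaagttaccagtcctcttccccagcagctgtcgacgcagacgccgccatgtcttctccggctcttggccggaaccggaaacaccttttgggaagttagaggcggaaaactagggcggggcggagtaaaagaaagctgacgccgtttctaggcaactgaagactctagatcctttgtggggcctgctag
Lypd3, chr7:24636320-24636619, plus strand: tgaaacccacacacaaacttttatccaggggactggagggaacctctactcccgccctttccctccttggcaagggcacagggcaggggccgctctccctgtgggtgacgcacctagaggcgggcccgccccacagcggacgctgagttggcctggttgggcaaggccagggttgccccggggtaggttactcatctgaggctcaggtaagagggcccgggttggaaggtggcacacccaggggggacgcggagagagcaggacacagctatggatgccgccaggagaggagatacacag
The Kcnh1 window held 5 cores, of which 2 overlapped, and those of Stk36 and Lypd3 held 0. The window of Rnaset2b, a member described below, was searched too and held 1 core, and its sequence is not shown. TGCGCNC itself holds a CG, and the windows of Kcnh1, Stk36 and Lypd3 held 27, 18 and 12 CG, against a median of 7 over RefSeq promoters. Of 27025 RefSeq promoters, 25.6% held at least 1 such core. Only 91 of the 118 members had an entry (77.1%), so a share over the members was void and is not given. A match is a run of letters, and its absence says nothing about the factor.

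Other named members of high level are known from DNA binding and repair, membrane traffic and adhesion. Arid5b, an AT-rich DNA-binding regulator, was at 76.2, 40.1 and 65.1 FPKM in Mtr4-null, against 0.237, 8.23 and 30.7 FPKM in WT, the least even of these genes. Eme2, a partner of the Mus81 nuclease, was at 26.9, 34.6 and 34.7 FPKM, against 7.73, 6.23 and 6.65 FPKM. Arl8a, a small GTPase that moves lysosomes, was at 34.3, 25.2 and 26.1 FPKM, against 7.52, 5.14 and 6.19 FPKM. The members also held Repin1, a zinc finger gene (22.4 ± 2.18 FPKM in Mtr4-null and 4.71 ± 0.952 FPKM in WT; SD, n = 3 each, as in the rest of this paragraph). These 4 genes work inside the cell, and the next act at its surface or in its skeleton. Coro2b, a coronin that binds actin, averaged 39.3 ± 5.14 FPKM in Mtr4-null and 7.27 ± 0.682 FPKM in WT. Lrfn4, an adhesion protein of synapses, averaged 18.3 ± 5.28 FPKM in Mtr4-null and 2.42 ± 1.19 FPKM in WT. Gp5, glycoprotein V of platelets, averaged 27.3 ± 12.5 FPKM in Mtr4-null and 4.54 ± 1.99 FPKM in WT. Tomt, a methyltransferase-like protein that mouse hair cells need for hearing, averaged 21.3 ± 3.61 FPKM in Mtr4-null and 4.15 ± 1.53 FPKM in WT. The rest of the named set (Spata21, Tusc1, Prr18, Leng9 and Lhfp) averaged 23.8 to 45.0 FPKM in Mtr4-null and 4.02 to 10.2 FPKM in WT.

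**Figure D1:**
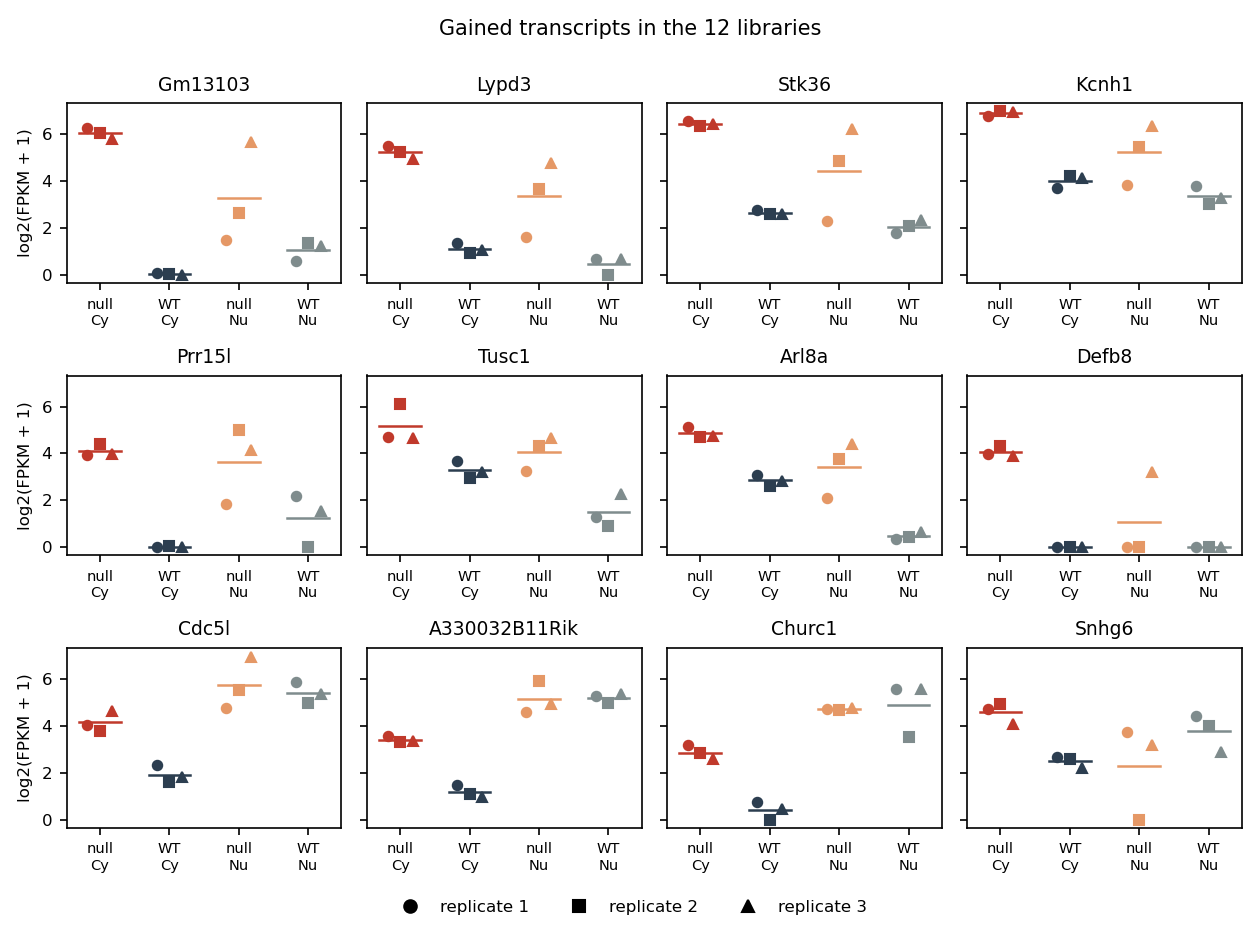
Levels of 12 members on the log2(FPKM + 1) scale in Mtr4-null cytoplasm, WT cytoplasm, nuclei labelled Mtr4-null and WT nuclei, from left to right. Points are single libraries (shape gives the replicate) and bars are group means. The cytoplasm groups do not overlap by the rule, while the nucleus library labelled Mtr4-null replicate 1 is the lowest of its label for Stk36, Lypd3 and Kcnh1, and Cdc5l, A330032B11Rik and Churc1 are higher in every nucleus than in any cytoplasm.

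Genes of the pathways and families of named members were counted by a looser measure, a cytoplasm log2 ratio of 1 or more without overlap. Of tested genes, 6.22% met it upward and 3.33% downward. Members meet it by the rule and are counted in, so the counts are not set against these shares. Of the genes named as higher in these lists, only Ptch1, Gli2, Plaur and Rnase10 are not members. Of 9 tested genes of the Hedgehog pathway, 3 were higher (Stk36, the receptor gene Ptch1 and the transcription factor gene Gli2) and 0 lower. Ptch1 was at 9.07, 4.95 and 10.5 FPKM in Mtr4-null, against 3.37, 1.83 and 3.82 FPKM in WT. Gli2 was at 7.26, 3.59 and 7.58 FPKM in Mtr4-null, against 0.827, 0.997 and 1.79 FPKM in WT. Ptch1 and Gli2 are not among the 118. Of 6 tested genes of motile cilia, Stk36 alone was higher and 0 were lower. Of 10 tested Ly6/uPAR genes, 2 were higher (Lypd3 and Plaur, the urokinase receptor) and 0 lower. Of 6 tested beta-defensin genes, Defb8 alone was higher and 2 were lower. Of 4 tested RNase A and T2 genes, 3 were higher (Rnase6, Rnase10 and Rnaset2b) and 1 was lower (Rnaset2a). Of 7 tested Pramel and Pramef genes, 2 were higher (Gm13103 and Pramef17) and 0 lower. Of 5 tested 2-cell-stage genes, 0 were higher and 0 lower. In the nuclei 0 genes of these lists passed the limma test described below with all libraries, in either direction. Leaving out the doubtful nucleus library, Stk36, Lypd3 and Rnaset2b were higher, and the beta-defensin gene Defb48, which is no member, was lower.

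By name, 29 of the 118 were Rik genes and 16 were Gm genes, predicted genes without a given name. Of the 13157 tested genes, 1140 were Rik genes and 380 were Gm genes. Of 1140 tested Rik genes, 157 were higher and 31 lower by the looser measure, and of 380 tested Gm genes, 45 were higher and 21 lower. Of all tested genes, 6.22% were higher and 3.33% lower by it. The higher counts include the 29 and 16 members, which meet that measure by the rule. Gm13103, which RefSeq calls Pramel27, of the PRAME-like family that is active in germ cells, had the largest cytoplasm ratio of all members (6.01). It stood at 75.5, 65.0 and 54.7 FPKM in Mtr4-null and at 0.0446, 0.0286 and 0 FPKM in WT. Pramef17, a member of the same family that lies near it with 1 other entry of the table between them, was at 3.72, 6.68 and 3.997 FPKM in Mtr4-null and had no FPKM in any WT cytoplasm (chosen after its values were seen, as the pairs below). The adjacent pair Phldb3 and Lypd3, the overlapping pair Mrvi1 and Gm16336, and Gm10638 and Gm10637, with 1 entry between them, were the other pairs of neighbours. Chromosome 4 held 16 of the members matched to a gene model (14.0%, against 6.48% of tested genes) and chromosome 17 held 13 (11.4%, against 4.95%).

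A930018P22Rik was at 63.9, 108 and 56.7 FPKM in Mtr4-null, against 4.96, 3.49 and 4.52 FPKM in WT. Gm5617 was at 83.9, 179 and 88.6 FPKM, against 30.9, 20.6 and 26.8 FPKM. 6430706D22Rik, listed in RefSeq as an older name of Hjurp, the chaperone that loads the centromere histone, was at 259, 182 and 270.2 FPKM, against 48.7, 51.3 and 56.7 FPKM. The table holds Hjurp as a separate entry, at 20.02 ± 3.16 FPKM in Mtr4-null and 10.0 ± 0.258 FPKM in WT cytoplasm (SD, n = 3 each). Whether the 2 entries are 1 gene could not be settled from the gene models, and the Hjurp entry, with a log2 ratio of 0.93, did not meet the looser measure.

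Some members share sequence with another gene, so that their own level is uncertain. In GENCODE transcripts, 8 of 114 members shared at least 25% of their words of 75 bases with another gene (7.02%, against 3.94% of tested genes), and 5 shared at least 50%. Rnaset2b, an RNase T2 gene of lysosomes, shared 54.1% of its words with Rnaset2a. Rnaset2b was at 11.7, 25.1 and 11.3 FPKM in Mtr4-null and listed at 0 in all 3 WT cytoplasms, while Rnaset2a was at 0.00101, 0.000538 and 7.88 FPKM in Mtr4-null and 22.002, 18.3 and 24.3 FPKM in WT. The sum of both averaged 18.6 ± 6.71 FPKM in Mtr4-null and 21.5 ± 3.02 FPKM in WT (SD, n = 3 each; log2 ratio -0.20), so the pair together was not higher in Mtr4-null. Gm9781, which RefSeq calls Eif3j2, shared 82.7% with Eif3j, a translation initiation factor gene, and was at 4.73, 7.86 and 0.00132 FPKM in Mtr4-null and below 0.001 FPKM in each WT cytoplasm. Its sum with Eif3j averaged 16.3 ± 7.38 FPKM in Mtr4-null and 14.8 ± 1.68 FPKM in WT (log2 ratio 0.13). Both sums differed by less than the spread between the Mtr4-null libraries.

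Other pairs behaved otherwise. All words of Gm7334 also occur in Btg3, an antiproliferation gene. Gm7334 was at 14.8, 20.8 and 13.3 FPKM in Mtr4-null, against 3.02, 3.07 and 2.99 FPKM in WT, while Btg3 was at 0.00172 FPKM or less in all 6 cytoplasms, so which of the 2 genes gave the RNA cannot be told apart. Gm13103 shared 30.8% of its words with Gm13088, and the sum of both still had a log2 ratio of 5.80. Pramef17 shared 59.8% of its words with Gm13128, which was near 0 in every cytoplasm. Gm5801 shared 31.2% with Ube2j2, and the sum of those had a log2 ratio of 1.37. Of the members matched to a gene model, 27 overlap another entry of the table. The use of strand in counting is not given in the sources used here, so reads of overlapping genes on opposite strands may be mixed. Of 25 tested partners, 3 were higher by the looser measure (Spsb3, which overlaps Eme2, and the members Mrvi1 and Gm16336, which overlap each other) and 0 lower.

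**Figure D2:**
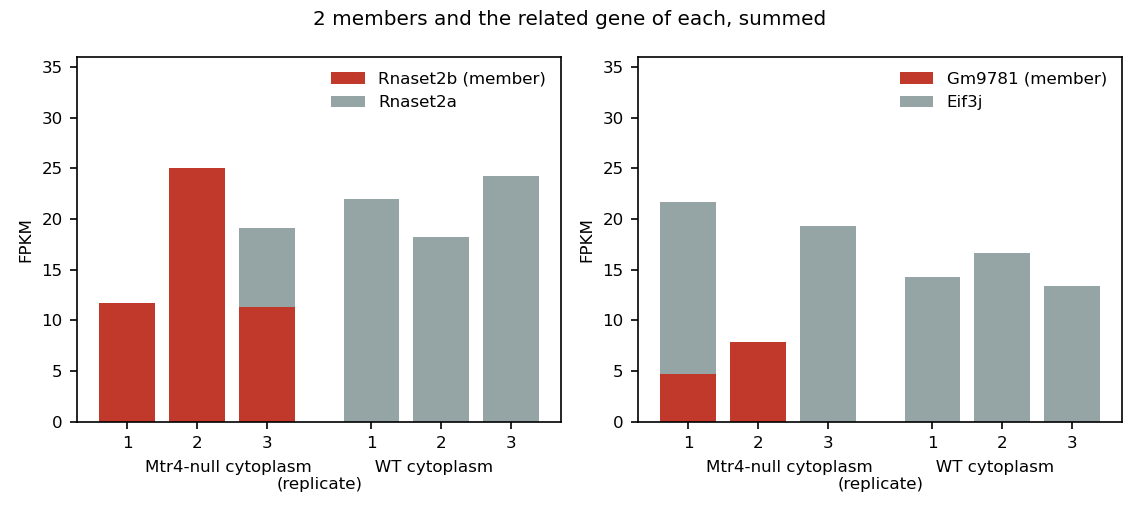
FPKM of 2 members and of the gene that shares most of their sequence, stacked, in the 3 Mtr4-null cytoplasms (left) and the 3 WT cytoplasms (right). Rnaset2b fills the bars of Mtr4-null replicates 1 and 2 and Rnaset2a those of WT, with similar sums, and Gm9781 appears in Mtr4-null replicates 1 and 2 only.

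Lars2, Tmem38b and Gm20594 averaged far higher in the nuclei than any other member. Lars2, the mitochondrial leucyl-tRNA synthetase, was at 268, 1984 and 1180.2 FPKM in Mtr4-null cytoplasm, against 79.4, 115 and 55.1 FPKM in WT cytoplasm. In nuclei labelled Mtr4-null it was at 4255, 23922 and 558 FPKM, and in WT nuclei at 9461, 29444 and 2143 FPKM. Tmem38b, a cation channel of the endoplasmic reticulum, and Gm20594 varied with it: the Pearson correlation over the 12 libraries was 0.99 for each of the 3 pairs. Rn45s, the ribosomal RNA precursor, was at 2211, 20429 and 9796 FPKM in Mtr4-null cytoplasms and at 1880, 805 and 332 FPKM in WT cytoplasms, and was listed at 0 in all 6 nuclei. Over the 6 cytoplasms, Lars2, Tmem38b and Gm20594 correlated with Rn45s at 0.949, 0.960 and 0.979, and the other members at up to 0.943 (Gp5). These correlations describe libraries of 2 genotypes that share their depth. The part of ribosomal RNA in the gain of the members was not tested. Whether these 3 entries measure RNA of the named genes was not tested either. Without Lars2, Tmem38b and Gm20594, the members summed to 2143, 2407 and 2180 FPKM in Mtr4-null cytoplasms, against 326, 275 and 330.04 FPKM in WT cytoplasms.

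A small set of entries averaged more in the WT nucleus than in either cytoplasm. WT nuclei exceeded WT cytoplasms in mean level for 61 of the 118, but exceeded Mtr4-null cytoplasms for only 9. Those 9 were Lars2, Tmem38b, Gm20594, Cdc5l, A330032B11Rik, 2500004C02Rik, 4632427E13Rik, Churc1 and 4930564D02Rik. The shares over all tested genes were not taken, so neither count is set against other genes. Cdc5l, a core protein of the splicing machinery of whose words 26.9% occur in another gene, was at 15.2, 12.9 and 23.8 FPKM in Mtr4-null cytoplasms, against 4.07, 2.01 and 2.48 FPKM in WT cytoplasms. Nuclei labelled Mtr4-null held Cdc5l at 26.5, 45.1 and 122 FPKM, and WT nuclei at 57.4, 30.4 and 39.5 FPKM. A330032B11Rik, an antisense transcript, was at 10.9, 8.81 and 9.12 FPKM in Mtr4-null cytoplasms, against 1.82, 1.14 and 0.931 FPKM in WT cytoplasms. Its nuclear level was 23.4, 59.2 and 29.8 FPKM under the Mtr4-null label and 37.3, 30.5 and 39.4 FPKM in WT nuclei, so that the nuclei overlap. Churc1, a small zinc-binding protein, was at 8.03, 6.11 and 4.99 FPKM in Mtr4-null cytoplasms, against 0.668, 0 and 0.355 FPKM in WT cytoplasms. Nuclei labelled Mtr4-null held Churc1 at 25.1, 24.6 and 26.5 FPKM, and WT nuclei at 47.1, 10.5 and 46.4 FPKM. For Cdc5l, A330032B11Rik and Churc1 the nuclear difference was small beside its error: the log2 fold changes were 0.36 ± 0.57, -0.04 ± 0.50 and -0.17 ± 0.57 in that order (limma, ± SE; adjusted p = 0.95, 0.99 and 0.98). 2900060B14Rik and Snhg6 were not among the 9, with means of 15.1 and 14.0 FPKM in WT nuclei, against 27.1 and 23.7 FPKM in Mtr4-null cytoplasms. 2900060B14Rik, an antisense transcript, was at 28.3, 31.3 and 21.6 FPKM in Mtr4-null cytoplasms, against 6.10, 4.51 and 3.80 FPKM in WT cytoplasms. It was at 7.56, 10.04 and 19.1 FPKM in nuclei labelled Mtr4-null, against 20.2, 12.9 and 12.3 FPKM in WT nuclei, a log2 fold change of -0.35 ± 0.53 (limma adjusted p = 0.95). Snhg6, the host of a small nucleolar RNA, was at 25.5, 29.6 and 16.05 FPKM in Mtr4-null cytoplasms and 5.37, 5.05 and 3.55 FPKM in WT cytoplasms. Its nuclear levels were 12.2, 0 and 8.10 FPKM under the Mtr4-null label and 20.6, 14.998 and 6.48 FPKM in WT nuclei, a log2 fold change of -1.48 ± 0.81 (limma adjusted p = 0.72).

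Most members were scarce in the WT nucleus instead. In WT nuclei 44 averaged under 1 FPKM, 50 between 1 and 5 FPKM and 24 at least 5 FPKM, and 13 were listed at 0 in all 3. Of the 8 listed at 0 in all WT cytoplasms (Rnaset2b, Defb8, Pramef17, Gm16336, Gm9958, Gm19784, Iqcf1 and BC039966), 6 were also listed at 0 in all WT nuclei.

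The nuclei tested whether members were also higher there without MTR4, in libraries the rule had not used. These libraries also held oocyte messenger RNA at a high level. The 14 oocyte markers summed to 6965, 4307 and 13451 FPKM in nuclei labelled Mtr4-null, and to 6567, 4198 and 8054 FPKM in WT nuclei. Cytoplasm RNA carried over would bring the gain that chose the members into the nuclei, and its part was not tested. The 9 tested of 14 noncoding RNAs listed as nuclear had a median nuclear log2 fold change of -1.29 with all libraries. Among them, Malat1 was at 278, 119 and 154 FPKM in nuclei labelled Mtr4-null, against 487, 262 and 596 FPKM in WT nuclei. With all 3 libraries of the label, 0 of 118 members passed the test higher or lower (limma on log2(FPKM + 1), Benjamini-Hochberg adjusted p below 0.05 over all 13157 tested genes, of which it called 0.0152% higher and 0.0228% lower). At an unadjusted p below 0.05, 35 members were higher and 0 lower, which is 29.7% and 0% of members against 2.86% and 4.93% of tested genes. Without the nucleus library labelled Mtr4-null replicate 1 these counts were 62 and 2 (52.5% and 1.69%, against 5.05% and 5.97%). Members that are low in WT are among the tested genes only through Mtr4-null libraries. Of the 71 that passed the filter on WT libraries, 18 were higher and 0 lower (25.4% and 0%, against 2.63% and 5.22% of all genes under that filter), and their median fold change was 0.83. The median nuclear log2 fold change of the members was 0.92, against 0.04 for all tested genes and -1.14 for the 70 lost transcripts. By level in WT nuclei, that median was 1.26 for the 44 members under 1 FPKM and 0.82 for the 50 from 1 to 5 FPKM. It was 0.21 for the 24 at 5 FPKM or more. The fold change was positive for 97 of the 118 members (82.2%, against 52.8% of tested genes). In a fit of all 4 groups with every library, which called 0.517% of tested genes higher and 1.75% lower, 6 members were higher (1110006O24Rik, A630066F11Rik, Arl8a, BC025920, Lypd3 and Tusc1) and 0 lower. Without the nucleus library labelled Mtr4-null replicate 1, 12 members were higher (background 0.19%) and 0 lower (background 0.19%), and the median was 1.47, against 0.09 for all tested genes and -1.71 for the lost transcripts, with 106 members positive (89.8%, against 54.8%). Of the 71 members that passed the filter on WT libraries, only 5 were then called higher and 0 lower. Over all 12034 genes under that filter, 12 were called higher and 25 lower. The median of the 71 was 1.36, and 46.5% of them were higher at an unadjusted p below 0.05, against 4.31% of those genes.

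The 12 members called higher without that library were 1110006O24Rik, 1190007I07Rik, 1700001G17Rik, A630066F11Rik, Arl8a, Extl1, Gm5617, Lypd3, Mrvi1, Rnaset2b, Stk36 and Zfp618. Lypd3 was at 2.09, 11.5 and 26.2 FPKM in nuclei labelled Mtr4-null, against 0.587, 0 and 0.616 FPKM in WT nuclei, a log2 fold change of 2.89 ± 0.71 (limma adjusted p = 0.31), and of 3.75 without the library labelled replicate 1 (adjusted p = 0.022). Arl8a was at 3.31, 12.4 and 20.001 FPKM, against 0.279, 0.339 and 0.586 FPKM, a fold change of 2.93 ± 0.63 (adjusted p = 0.23), and of 3.59 without that library (adjusted p = 0.022). For both genes all 3 libraries of the label exceeded every WT nucleus. Stk36 was at 3.84, 27.7 and 72.5 FPKM in nuclei labelled Mtr4-null, against 2.41, 3.23 and 4.01 FPKM in WT nuclei, with 2.38 ± 0.77 (adjusted p = 0.46) and, without that library, 3.46 (adjusted p = 0.037). Gm5617 was at 17.5, 138 and 112 FPKM, against 17.7, 11.97 and 14.5 FPKM, with 2.09 ± 0.66 (adjusted p = 0.46) and 3.01 (adjusted p = 0.041). Rnaset2b was at 0, 9.76 and 5.19 FPKM and listed at 0 in all WT nuclei, but its sum with Rnaset2a was 0.00355, 9.76 and 5.203 FPKM in nuclei labelled Mtr4-null, against 6.22, 0.00974 and 0.0274 FPKM in WT nuclei, and the nuclei overlapped in it. In Stk36, Gm5617 and Rnaset2b the library labelled replicate 1 lay within the range of the WT nuclei.

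The next gene, 1110006O24Rik, was chosen after its values were seen. It stood at 5.27, 73.0 and 18.8 FPKM in nuclei labelled Mtr4-null, against 0, 0.900 and 0 FPKM in WT nuclei (log2 fold change 4.08 ± 0.76, limma adjusted p = 0.12). Kcnh1 was at 13.4, 43.3 and 81.2 FPKM, against 12.9, 7.06 and 8.64 FPKM, a fold change of 1.87 ± 0.61 (adjusted p = 0.46). Rln3 was at 0, 64.5 and 61.3 FPKM in nuclei labelled Mtr4-null, against 17.0, 3.75 and 6.48 FPKM in WT nuclei. A930018P22Rik was at 0, 113 and 40.1 FPKM, against 5.44, 5.78 and 9.27 FPKM. Both were thus listed at 0 in the library labelled replicate 1 and lay above every WT nucleus in the others of that label. Gm13103 was at 1.82, 5.19 and 50.2 FPKM in nuclei labelled Mtr4-null and at 0.513, 1.56 and 1.35 FPKM in WT nuclei, so its high nuclear level rested on the library labelled replicate 3.

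Counted by separation alone, 18 members had all 3 nuclei labelled Mtr4-null above every WT nucleus (15.3%, against 6.22% of tested genes) and 0 had all below (against 6.7%). Replicates 2 and 3 were both above every WT nucleus for 73 members (61.9%, against 14.5%) and both below for 0 (against 11.2%). The library labelled replicate 1 was above every WT nucleus for 23 members (19.5%, against 23.6% of tested genes), replicate 2 for 77 (65.3%, against 16.9%) and replicate 3 for 103 (87.3%, against 62.4%). The library labelled replicate 1 was below every WT nucleus for 30 members (25.4%, against 25.7% of tested genes), replicate 2 for 8 (6.78%, against 50.6%) and replicate 3 for 4 (3.39%, against 13.6%). Relative to the mean of the WT nuclei, the median member was at -0.12 in the library labelled replicate 1, 1.02 in replicate 2 and 2.09 in replicate 3 on the log2 scale, and the median tested gene was at -0.03, -0.50 and 0.73. The members therefore exceeded the other genes in replicates 2 and 3 and not in the library labelled replicate 1, which held Mtr4 RNA at 7.98 FPKM. The part that the shift of all genes in replicate 3 has in its value was not tested.

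**Figure D3:**
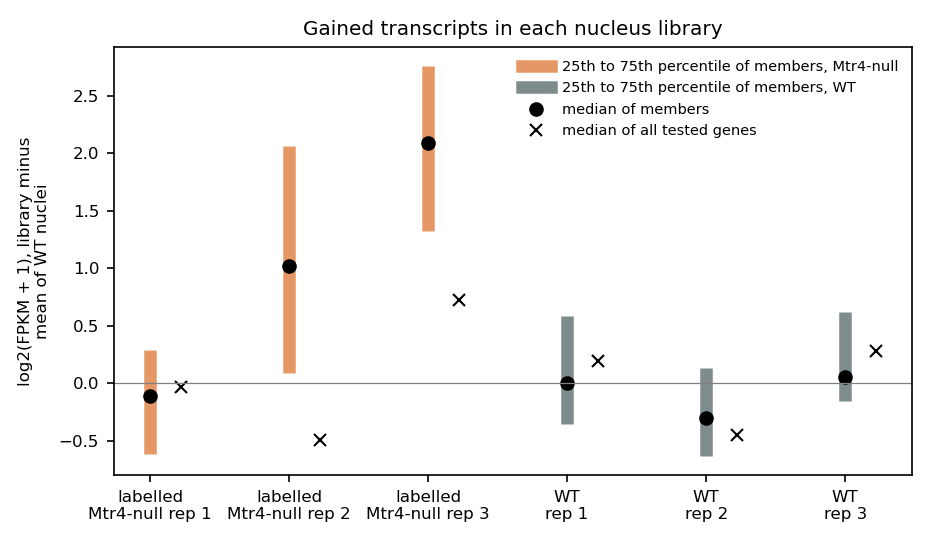
Difference of each nucleus library from the mean of the WT nuclei on the log2(FPKM + 1) scale, with nuclei labelled Mtr4-null on the left and WT nuclei on the right. Bars span the 25th to 75th percentile of the 118 members, dots are their medians and crosses the medians of all tested genes. The members' medians are -0.12, 1.02 and 2.09 in the libraries labelled Mtr4-null.

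**Figure D4:**
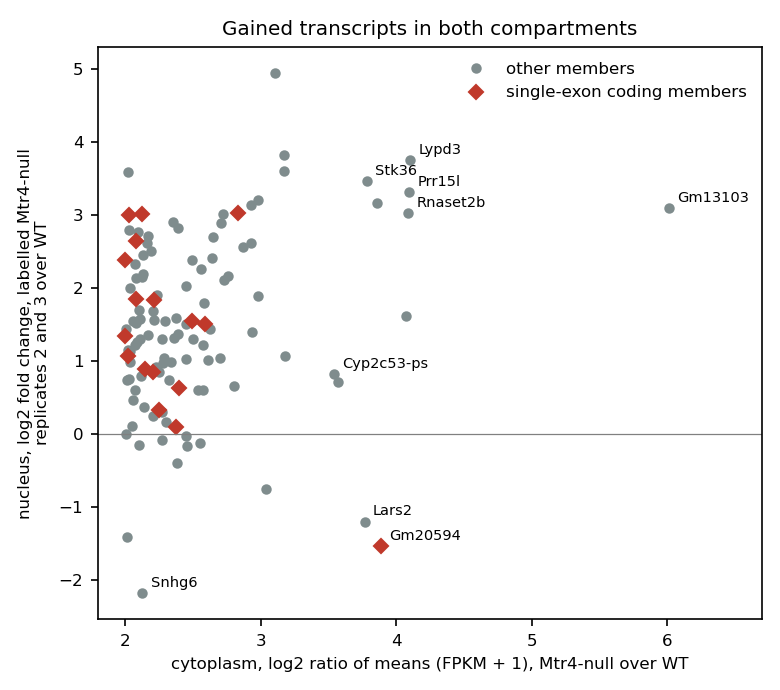
Each of the 118 members by its cytoplasm log2 ratio, Mtr4-null over WT (horizontal axis, which chose the members), and by its nuclear log2 fold change without the nucleus library labelled Mtr4-null replicate 1 (vertical axis). Diamonds are coding members with 1 exon. Most lie above 0 in the nucleus, and Lars2, Gm20594 and Snhg6 lie below.

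Exon structure and gene type were not used by the rule, and many members were noncoding or had a single exon. Of 114 members matched to GENCODE, 29 were noncoding (25.4%), against 5.93% of tested genes. Among 85 coding members, 17 had a single exon, against 257 of 12017 coding genes tested (2.14%) and 0 of 66 coding lost transcripts. A single coding exon was found in 30.6% of coding members, against 5.91% of coding genes tested. The median GC content of the transcript was 54.1% in coding members, 49.98% in coding genes tested and 47.4% in coding lost transcripts. These shares are descriptions with no test. Members that are low in WT entered the tested set through their Mtr4-null values, but among the 71 that also passed a filter on WT libraries, 12 of 50 coding members had a single exon (24.0%), against 1.83% of genes under the same filter.

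In GENCODE, the single-exon coding members have no intron to splice. They were Gm20594, Gm5617, Tusc1, Leng9, 1700056E22Rik, 2310039H08Rik, Cldn9, Mblac1, Gm10638, Adra2c, Tssk6, B3galt6, Gm10190, Sft2d3, Sfn, Gm9958 and Gm9781, of which Gm20594 varied with Lars2 and Gm9781 shares most of its sequence with Eif3j. Among them, Gm10638 and Gm10190 are coding in GENCODE but noncoding in RefSeq. Tusc1, a tumour suppressor candidate, was at 25.3, 68.7 and 24.4 FPKM in Mtr4-null cytoplasms, against 11.97, 6.63 and 8.17 FPKM in WT cytoplasms. Nuclei labelled Mtr4-null had Tusc1 at 8.54, 18.96 and 23.9 FPKM, against 1.44, 0.875 and 3.78 FPKM in WT nuclei (log2 fold change 2.59 ± 0.59, limma adjusted p = 0.28, and 0.015 in the fit of all 4 groups). Leng9 was at 22.7, 27.5 and 22.2 FPKM in Mtr4-null cytoplasms, against 6.26, 4.93 and 3.64 FPKM in WT cytoplasms. Others, named after their values were seen, are the tight junction gene Cldn9 (11.6 ± 9.15 FPKM in Mtr4-null and 0.775 ± 0.217 FPKM in WT cytoplasm; SD, n = 3 each) and the adrenergic receptor gene Adra2c (10.2 ± 2.84 FPKM in Mtr4-null and 1.42 ± 0.938 FPKM in WT).

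The same tendency was seen in genes that the rule had not taken. With the members left out, the 240 tested coding genes with a single exon had a median cytoplasm log2 ratio of 0.43, against -0.01 for the 11248 with several coding exons. Relative to the mean of the WT cytoplasms their median was 0.42, 0.43 and 0.44 in the 3 Mtr4-null cytoplasms. By the looser measure 21.7% were higher and 2.08% lower, against 4.15% and 3.29% of genes with several coding exons. Genes with several exons of which 1 codes lay between in the share that was higher (9.23%). Their share that was lower, 4.73%, exceeded that of both other classes. Of noncoding genes, 12.9% were higher and 2.88% lower. The medians were also taken within ranges of level and of GC content, a choice made after the data were seen, as was the filter on WT libraries, and again with the members left out. Among genes of 1 to 10 FPKM in WT cytoplasm, single-exon genes had a median ratio of 0.73 and genes with several coding exons 0.08. With tested genes cut into 5 equal classes by GC content, the medians were 0.74 and 0.19 in the highest class and 0.33 and -0.05 in the others. Genes can enter the tested set through Mtr4-null libraries. Under the filter on WT libraries, with members counted in, the medians were 0.51 for 204 single-exon genes and -0.03 for 10555 with several coding exons. By the looser measure 25.5% and 3.57% of these were higher, and 2.45% and 3.51% lower. In nuclei the single-exon class differed less, with a median fold change of 0.20 with all libraries and 0.40 without the library labelled replicate 1, against 0.06 and 0.10 for several coding exons, members left out.

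**Figure D5:**
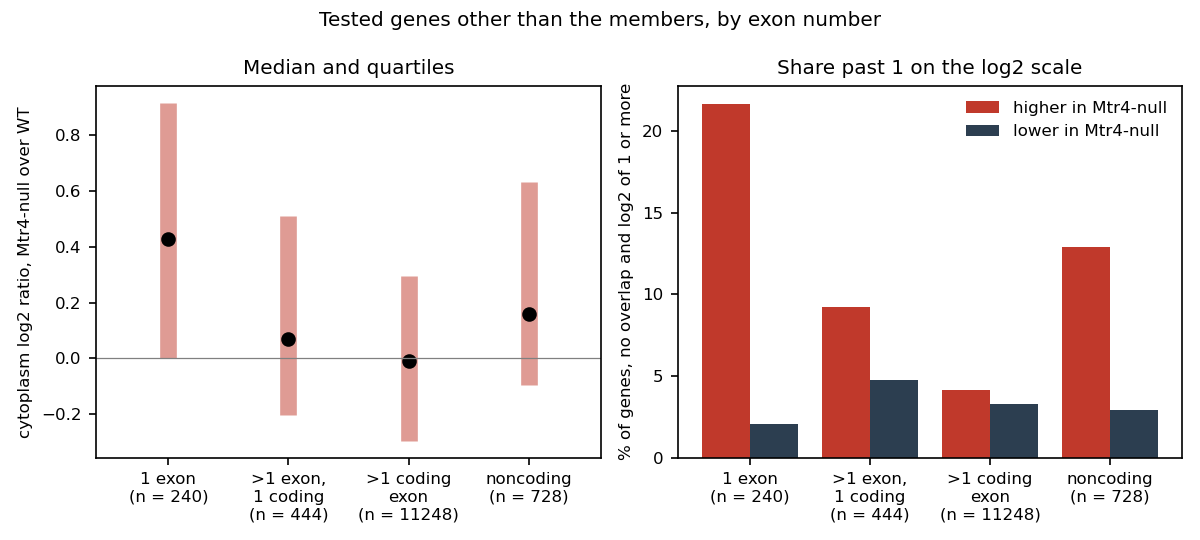
Tested genes other than the members and the symbols left out by name, grouped by exon number in GENCODE. Left, the median (dot) and quartiles (bar) of the cytoplasm log2 ratio, Mtr4-null over WT. Right, the percent of each class that was higher or lower in Mtr4-null by 1 or more without overlap, which reaches 21.7% for genes with a single exon.

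GC content moved with the ratio over all genes. From the lowest to the highest of these 5 classes, the median cytoplasm log2 ratio of tested coding genes was -0.20, -0.09, 0, 0.08 and 0.21, and the share that were members was 0.374%, 0.458%, 0.541%, 0.583% and 1.58%. The part of GC content in the gain of the members was not tested. Olfactory receptor genes, most of which have a single coding exon, had a summed level of 90.4, 67.1 and 82.1 FPKM in Mtr4-null cytoplasms, against 103, 107 and 108 FPKM in WT cytoplasms, and 3 of 62 tested were higher and 3 lower by the looser measure. Of their 1118 entries, 944 were listed at 0 in every cytoplasm, and the 62 tested had a median of 0.0944 FPKM in WT cytoplasm. With 1 FPKM added, ratios at such levels stay near 0, so these counts say little of the class.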

How the data were processed

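RNA of 10 nuclei or cytoplasms per library was measured in 12 libraries. The authors' deposited values are FPKM, and per the submitters' processing notes TopHat2 2.1.1, Cufflinks 2.2.1 and mm9 were used. The task of each tool, the gene models and strand handling were not given in the sources used here. Values gave no whole reads, so absolute depth is unknown. Relative depth was read from values below 0.3 FPKM. The labels do not say whether a group's libraries stem from different mice, and p-values then reflect only how these libraries vary, perhaps for technical reasons.

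The members and the gene lists were chosen with earlier results of these data known. Named genes are the 20 named members and the 5 Gm or Rik members highest in Mtr4-null cytoplasm, the 8 highest in WT nuclei, the 6 with the largest cytoplasm ratio, those just inside and just outside the threshold (2 each) and Mtr4. Other names were chosen after their values were seen.

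The test took genes that reached 1 FPKM in 3 or more of the 12 libraries, which all 118 members passed and 71 would have passed on WT libraries alone. The nuclear contrast was fitted to the 6 nuclei with limma 3.58.1 (R 4.3.3) on log2(FPKM + 1), with moderated variances and a trend, two-sided, adjusted by Benjamini and Hochberg over all 13157 genes. The pseudocount understates the change of low genes. Exon number, GC content, overlap and shared words came from GENCODE M21 on GRCm38, matched by symbol for 96.6% of members and 98.2% of tested genes (counted over 13003 genes, without entries of the kinds left out by name), and coordinates of the files were not mixed with it. Alternatives are given in the closing section.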

Additional observations from a re-analysis of the deposited data

How the results depend on the processing

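The number of members follows the pseudocount and the threshold: 547 genes met the rule with 0.1 FPKM added, 14 with 5 FPKM, 300 at a log2 threshold of 1.5 and 16 at 3. Leaving out each cytoplasm library in turn gave 106 to 139, median-of-ratios scaling 81 and quantile normalization 96. In the nuclei, 5 tested genes were called with the 6 nuclei alone, 298 in the fit of all 4 groups, 12 with no filter on low values, 15 with a filter on the 6 nuclei, 1656 with library weights and 12 without the libraries labelled Mtr4-null nucleus replicates 1 and 3. The same settings called 0, 6, 0, 2, 15 and 0 members. Leaving out 1 nucleus at a time gave 4 to 50 called genes and 0 to 12 called members, the highest in each case without the nucleus library labelled Mtr4-null replicate 1. Members with separated nuclei, 18 in all, numbered 36 after quantile normalization, 77 without both of those libraries and 19 to 73 on leaving out 1 nucleus at a time. The members' median nuclear log2 fold change ran from 0.44, without the library labelled replicate 3, to 1.47, without that labelled replicate 1. It turned to -0.10 with library weights, as did Rln3 (-3.10) and A930018P22Rik (-2.59), because the weights gave 8.14 to the nucleus library labelled Mtr4-null replicate 1 and 0.271 and 0.214 to the others of its label.

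The replicate numbers did not pair the samples: same-numbered nuclei correlated at 0.12, 0.06 and -0.01 in their deviations from the group means, and same-numbered cytoplasms at -0.15, -0.12 and 0.07. With a replicate block 8 genes and 1 member were called in the nuclei. Shallow nuclei, possible cytoplasm RNA in them, a doubtful label and the library labelled replicate 3 limit the nuclear tests.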
